A study of Mus musculus with 16 samples.

Results

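The unfolded protein response and the integrated stress response were described here through 34 genes, out of 17410 genes counted in 16 mouse liver libraries. The members were taken by symbol in 2 sets, with earlier results of these data known. One set held 23 genes of the endoplasmic reticulum (ER), namely its stress sensors, its chaperones and the targets of the transcription factors XBP1 and ATF6. The other held 11 ATF4-type genes, which belong to the integrated stress response. In the unfolded protein response, misfolded protein in the ER lumen is sensed by IRE1α, PERK and ATF6, and IRE1α and ATF6 then drive genes for folding and for removal of ER proteins. PERK and other kinases phosphorylate the initiation factor eIF2α, which lowers general translation while translation of ATF4 mRNA increases, and ATF4 drives genes of amino acid supply, redox balance and cell death. Hepatocytes secrete most plasma proteins and so carry a large ER, and both responses are well known from fatty liver.

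Mlxipl encodes ChREBP, a transcription factor that responds to carbohydrate, and ChREBPα is one of its isoforms. It was altered in 2 experiments, with 4 livers in each of 4 groups. In the deletion experiment all mice were Chrebpα-flox/flox and all received an adeno-associated virus driven by TBG, a hepatocyte promoter: AAV-TBG-Cre gave the group LKO_NASH (livers 21 to 24) and AAV-TBG-GFP the group WT_NASH (livers 17 to 20). Both groups ate the NASH diet, in which fat (palm oil) gave 40% of calories and fructose 20%, with 2% cholesterol, for 12 weeks, and their age is not given. In the overexpression experiment wildtype mice received an adenovirus carrying Chrebpα (Ad_Chrebpa_HFLMCD, livers 13 to 16) or GFP (Ad_GFP_HFLMCD, livers 9 to 12). They began the HFLMCD diet at 2 months of age, with 45% of calories from fat, no choline and 0.1% added methionine. That diet lasted 3 weeks per the labels, and the livers were taken 1 week after the virus. The promoter of the adenoviruses is not given, and TBG limits Cre to hepatocytes, so other liver cells are not targeted in LKO_NASH.

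The libraries held 21254937 to 40327264 expected counts. Mlxipl does not check the labels here, since the deleted exon and the counting of the vector's sequence are not given: it had 47.5 to 100.1 FPKM in livers labelled LKO_NASH against 50.1 to 80.4 in WT_NASH livers, and 44.7 to 47.8 FPKM in livers labelled Ad_Chrebpa_HFLMCD against 39.0 to 48.5 in Ad_GFP_HFLMCD livers. All 15 hepatocyte markers were detected in every group, so the tissue label holds by its markers. FPKM, which scale fragments to transcript length and to library depth, are the authors' values and are given in the order of the liver numbers. Log2 fold changes come from edgeR on the counts, and a gene was called at an adjusted p below 0.05 over all genes tested. All 34 members passed the filter on low counts in each comparison. Strandedness is not given, so reads of Hspa5, Pdia3, Pdia6, Syvn1, Ddit3 and Ppp1r15a may be shared with the protein-coding genes that overlap them. In whole liver, fewer cells of a type and less RNA per cell cannot be told apart. Livers that stood apart from their own group were liver 21 (LKO_NASH), with high ER genes, liver 23 of the same group, with low ER genes, liver 11 (Ad_GFP_HFLMCD), with high ATF4-type genes, and liver 14 (Ad_Chrebpa_HFLMCD), known to stand apart over all genes from earlier results of these data. The WT_NASH livers were spread in the ER genes as well, with liver 18 highest in 14 of 23 and liver 20 lowest in 17. The calls over all genes in Ad_Chrebpa_HFLMCD numbered 937 up and 785 down when liver 14 was dropped, beside 676 up and 434 down with it kept. Values without these livers are given where they differ most.

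Calr led the levels at 396 FPKM as the mean of all 16 livers, followed by Hsp90b1 at 258, Hspa5 at 252, Herpud1 at 196, Pdia3 at 169 and Xbp1 at 119. Atf4, at 63.2 FPKM, was the most abundant ATF4-type gene by far, as the next was Atf3 at 9.68 and the lowest Phgdh at 0.846. The ranges of Hsp90b1 and Hspa5 overlapped in each group, so these neighbours do not differ beyond their spread.

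The start-site windows of the ER genes carried the response elements of this pathway more often than those of all genes, as a count with no test. The set was defined in part as targets of XBP1 and ATF6, so this follows in part from its choice and is no independent result. RefSeq windows on GRCm38.p6, from 250 bases before to 50 after the start, were found for 31 of the 34 members. The ER stress element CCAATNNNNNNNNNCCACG, searched on both strands, was present in 9 of 20 ER genes with a window (Hspa5, Hsp90b1, Calr, Canx, Pdia6, Dnajc3, Creld2, Syvn1 and Derl3), in 0 of 11 ATF4-type genes and in 0.137% of 27025 genes. ATTGGNCCACG, a second ER stress element whose last bases overlap those of the first, was found in Dnajb11 and Herpud1 and in 0.0444% of genes. TTGCATCA, the C/EBP-ATF element that ATF4 and CHOP bind, stood in Herpud1, Atf3 and Chac1 and in 1.03% of genes, and the carbohydrate response element that ChREBP binds, searched by its consensus, in 0 members and 0.137% of genes. The windows of Hspa5, Calr and Herpud1 are printed because the ER results turn on these genes, with the last 200 bases before the start, read along the gene's strand, and the elements in capitals. Hspa5 lies at chr2:34771890-34772089 (plus strand), Calr at chr8:84846932-84847131 (minus strand, its element on the opposite strand) and Herpud1 at chr8:94386229-94386428 (plus strand, with the C/EBP-ATF element first and the ER stress element after it).
Hspa5: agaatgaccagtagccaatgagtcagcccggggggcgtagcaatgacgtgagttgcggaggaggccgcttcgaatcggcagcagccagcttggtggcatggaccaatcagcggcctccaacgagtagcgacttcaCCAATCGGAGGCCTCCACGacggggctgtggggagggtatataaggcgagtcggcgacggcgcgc
Calr: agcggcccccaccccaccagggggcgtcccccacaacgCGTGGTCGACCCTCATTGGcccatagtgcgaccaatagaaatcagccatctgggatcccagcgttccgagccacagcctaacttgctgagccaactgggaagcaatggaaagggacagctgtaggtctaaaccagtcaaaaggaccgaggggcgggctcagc
Herpud1: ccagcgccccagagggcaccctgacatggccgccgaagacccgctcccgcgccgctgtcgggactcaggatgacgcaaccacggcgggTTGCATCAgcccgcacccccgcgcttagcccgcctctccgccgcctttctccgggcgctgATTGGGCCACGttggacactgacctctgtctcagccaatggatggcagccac
Herpud1 is thus the member with elements of both responses in this window, where a match is a run of letters and not a measured site.

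The deletion experiment asks what loss of ChREBPα in hepatocytes does under the NASH diet. In LKO_NASH livers 21 of 23 ER genes had a negative log2 fold change against WT_NASH, with a median of -0.32 beside 0.01 over all genes, while 48.5% of all genes were negative. Xbp1, Hspa5, Hyou1 and Dnajb11 lay lowest, at -0.75 to -0.58, and Herpud1 and Derl3 were positive. No member was called, and neither was any other gene (0% of 12786). At an unadjusted p below 0.05, 4 ER genes were lower (Xbp1, Atf6, Hsp90b1 and Dnajb11) and 0 higher. Of all 12786 genes 752 were lower and 985 higher at that threshold. DESeq2 and limma-voom called 0 ER genes. Livers 21 and 23 stood apart on opposite sides, as livers 18 and 20 did within WT_NASH. Liver 21 had the highest value of its group in 17 of 23 ER genes, whereas over all genes it was the highest in 36.1%, and it lay at or above the lowest WT_NASH liver in 23 of 23.

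**Figure D1:**
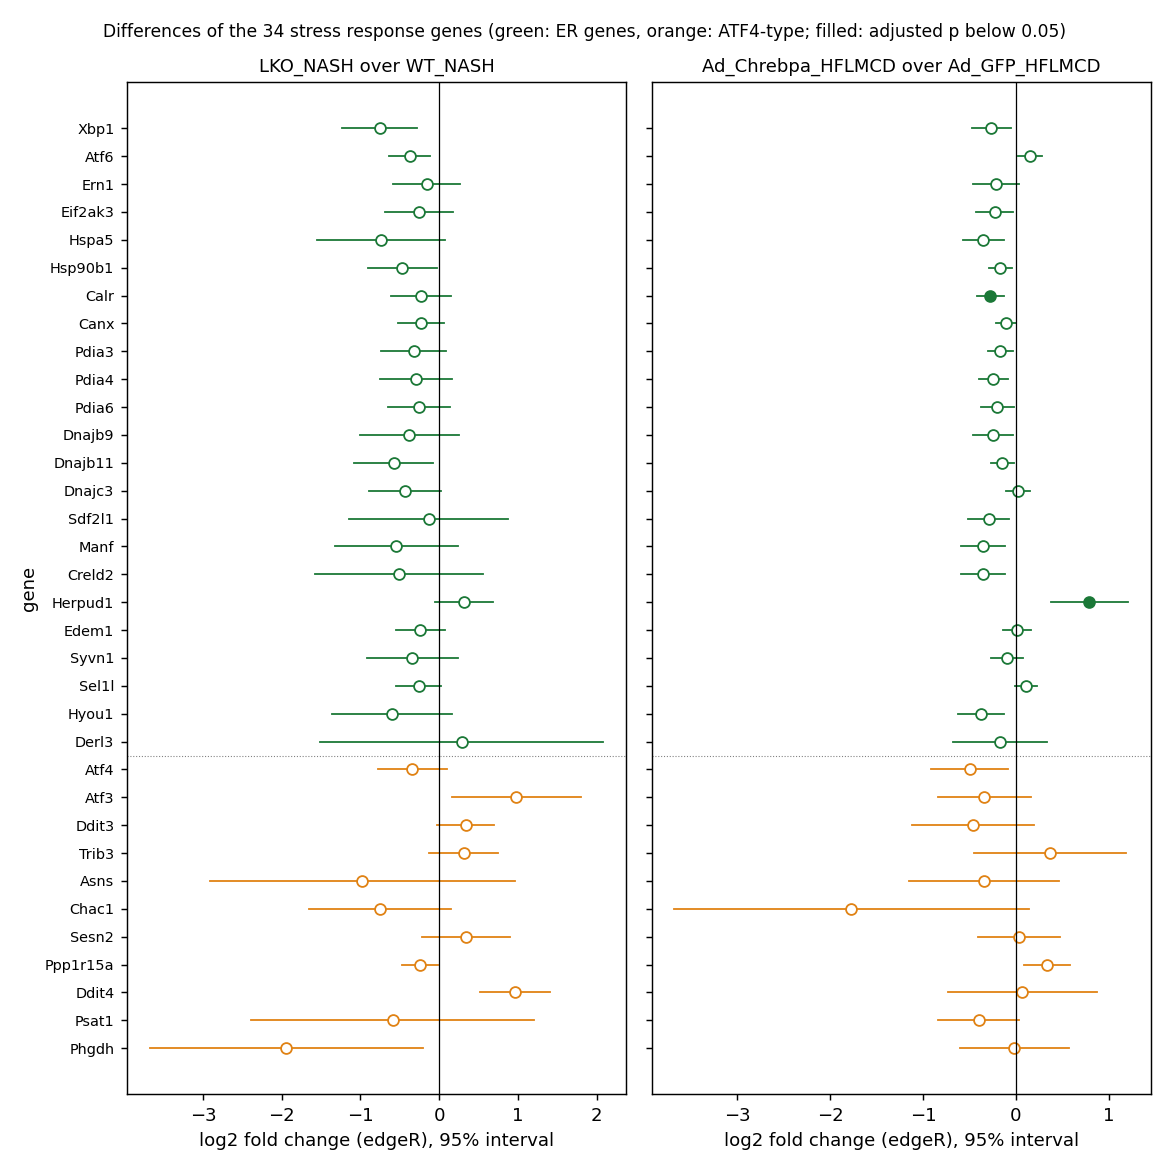
Log2 fold changes of the 34 genes from edgeR, with approximate 95% intervals. The left panel shows LKO_NASH over WT_NASH and the right panel Ad_Chrebpa_HFLMCD over Ad_GFP_HFLMCD. ER genes are in green above the ATF4-type genes in orange, with filled points for an adjusted p below 0.05. Most ER genes lie left of 0 in both panels, Herpud1 lies right of 0 in both, and Calr and Herpud1 on the right are the filled points.

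Of the sensors and transcription factors of the ER, Xbp1, whose mRNA IRE1α splices into an active factor, had 121, 61.9, 72.6 and 83.6 FPKM in LKO_NASH livers, against 127, 129, 146 and 114 in WT_NASH livers. Livers 22 to 24 were below every WT_NASH liver and liver 21 was inside their range, and the log2 fold change was -0.75 (adjusted p = 0.31, SE 0.21). These totals do not separate spliced from unspliced Xbp1 mRNA. Atf6, a membrane-bound factor freed by cleavage, had 14.8, 12.7, 10.6 and 13.4 FPKM in LKO_NASH livers, against 14.1, 14.9, 14.2 and 17.0 in WT_NASH livers. Again livers 22 to 24 lay below the lowest WT_NASH liver, with a log2 fold change of -0.37 (adjusted p = 0.337, SE 0.12). Ern1, which encodes IRE1α itself, had 9.42, 6.85, 5.36 and 7.81 FPKM in LKO_NASH livers, against 6.83, 5.34, 8.59 and 8.94 in WT_NASH livers, with a log2 fold change of -0.15. Eif2ak3, which encodes PERK, had 4.40, 2.81, 2.75 and 3.46 FPKM in LKO_NASH livers, against 3.89, 2.84, 3.17 and 4.66 in WT_NASH livers, or -0.26 on the log2 scale. For both kinases the groups overlapped widely, and sensor activity, which is set on the protein, is not measured by these totals.

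The chaperone BiP, encoded by Hspa5, is the main Hsp70 of the ER and holds the sensors inactive. Hspa5 had 367, 148, 123 and 167 FPKM in LKO_NASH livers, against 373, 339, 222 and 281 in WT_NASH livers. Livers 22 to 24 were below every WT_NASH liver while liver 21 nearly matched the highest, and the log2 fold change of -0.74 (adjusted p = 0.395, SE 0.36) had a 95% interval of -1.55 to 0.071. Hyou1, which exchanges the nucleotide of BiP, had 52.3, 24.9, 15.5 and 31.7 FPKM in LKO_NASH livers, against 46.5, 50.9, 36.1 and 35.8 in WT_NASH livers, with livers 22 to 24 lowest again, and liver 21 above all WT_NASH livers. Its log2 fold change was -0.60 (adjusted p = 0.429, SE 0.34). Dnajb11, a BiP co-chaperone, had 47.0, 33.0, 21.3 and 37.7 FPKM in LKO_NASH livers, against 51.5, 50.6, 41.0 and 41.9 in WT_NASH livers. Its livers 22 to 24 were again the lowest of the 8, at -0.58 (adjusted p = 0.356, SE 0.22). Dnajc3, another co-chaperone, had 61.2, 46.6, 31.9 and 53.5 FPKM in LKO_NASH livers, against 66.0, 62.1, 52.9 and 52.6 in WT_NASH livers, with a log2 fold change of -0.43. Creld2, an ER protein induced by stress, had 59.8, 19.0, 11.2 and 28.7 FPKM in LKO_NASH livers, against 47.6, 48.2, 28.8 and 27.5 in WT_NASH livers, or -0.51 on the log2 scale. Manf, a secreted factor that binds BiP, had 46.2, 18.3, 14.4 and 22.1 FPKM in LKO_NASH livers, against 36.7, 38.7, 28.3 and 29.1 in WT_NASH livers. Without liver 21 Creld2 was at -1.15 (adjusted p = 0.074). Liver 21 stood above all WT_NASH livers for Manf and Creld2 and the other LKO_NASH livers at or below the lower WT_NASH livers, and the log2 fold change of Manf was -0.54.

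The glycoprotein chaperones and disulfide isomerases had log2 fold changes of -0.23 to -0.47, together with Hsp90b1. Hsp90b1, the ER member of the Hsp90 family, had 281, 232, 183 and 261 FPKM in LKO_NASH livers, against 317, 361, 255 and 251 in WT_NASH livers, a log2 fold change of -0.47 (adjusted p = 0.358, SE 0.19). Calr, a calcium-binding lectin chaperone, had 395, 382, 275 and 418 FPKM in LKO_NASH livers, against 365, 459.8, 388 and 331 in WT_NASH livers (-0.23 on the log2 scale). Its membrane-bound relative Canx had 81.2, 74.3, 58.0 and 76.6 FPKM in LKO_NASH livers, against 75.5, 81.5, 73.2 and 76.3 in WT_NASH livers (-0.23). In both, liver 23 alone was clearly low. Among the disulfide isomerases, Pdia3 had 176, 155, 108 and 179.6 FPKM in LKO_NASH livers, against 178, 201, 160.3 and 153 in WT_NASH livers (-0.32 on the log2 scale). Pdia4 had 60.1, 50.7, 34.5 and 57.6 FPKM in LKO_NASH livers, against 51.4, 68.7, 58.6 and 43.8 in WT_NASH livers (-0.29 on the log2 scale). Liver 23 was the lowest of its group in 18 of 23 ER genes, these among them, and the groups overlapped. Pdia6, Dnajb9 and Sdf2l1, an isomerase, a BiP co-chaperone and a partner of ER co-chaperones, had log2 fold changes of -0.26, -0.38 and -0.13 with overlapping groups.

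Genes of ER-associated degradation differed in sign. Herpud1, a scaffold of the HRD1 ubiquitin ligase complex, had 237, 284, 291 and 304 FPKM in LKO_NASH livers, against 222, 234, 186 and 161 in WT_NASH livers. It was the ER gene whose LKO_NASH livers all lay above all WT_NASH livers, though by little for liver 21, and its log2 fold change of 0.31 (adjusted p = 0.411, SE 0.16) was not called. The share of all genes without overlap was 6.93% higher and 0.673% lower, so 1 higher and 0 lower of 23 ER genes is no more than the share over all genes gives. Syvn1, the HRD1 ligase, had 47.2, 22.5, 20.3 and 28.8 FPKM in LKO_NASH livers, against 33.6, 37.7, 34.9 and 30.3 in WT_NASH livers, with livers 22 to 24 below all WT_NASH livers (-0.34 on the log2 scale). Sel1l, the adaptor of HRD1, had 29.2, 31.0, 25.5 and 29.1 FPKM in LKO_NASH livers, against 29.5, 35.1, 32.3 and 26.6 in WT_NASH livers (-0.26 on the log2 scale). Edem1, a lectin that hands misfolded glycoproteins to this machinery, had 22.7, 24.5, 24.2 and 22.3 FPKM in LKO_NASH livers, against 24.2, 29.0, 25.6 and 20.6 in WT_NASH livers (-0.24). For Sel1l and Edem1 the groups overlapped. Derl3, a derlin of the retrotranslocation channel, varied most, with 3.55, 12.1, 0.49 and 16.2 FPKM in LKO_NASH livers, against 4.20, 9.11, 8.04 and 1.90 in WT_NASH livers, and its log2 fold change of 0.28 turned negative without liver 24 (-0.25). The ratio of Herpud1 to Hspa5 FPKM was 0.65, 1.92, 2.37 and 1.81 in LKO_NASH livers, against 0.60, 0.69, 0.83 and 0.58 in WT_NASH livers. Livers 22 to 24 thus had more Herpud1 than Hspa5 by this measure per length, and liver 21 had the ratio of a WT_NASH liver. The ratio joins the ER gene with the highest log2 fold change to one of the lowest, so it is no separate result.

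**Figure D2:**
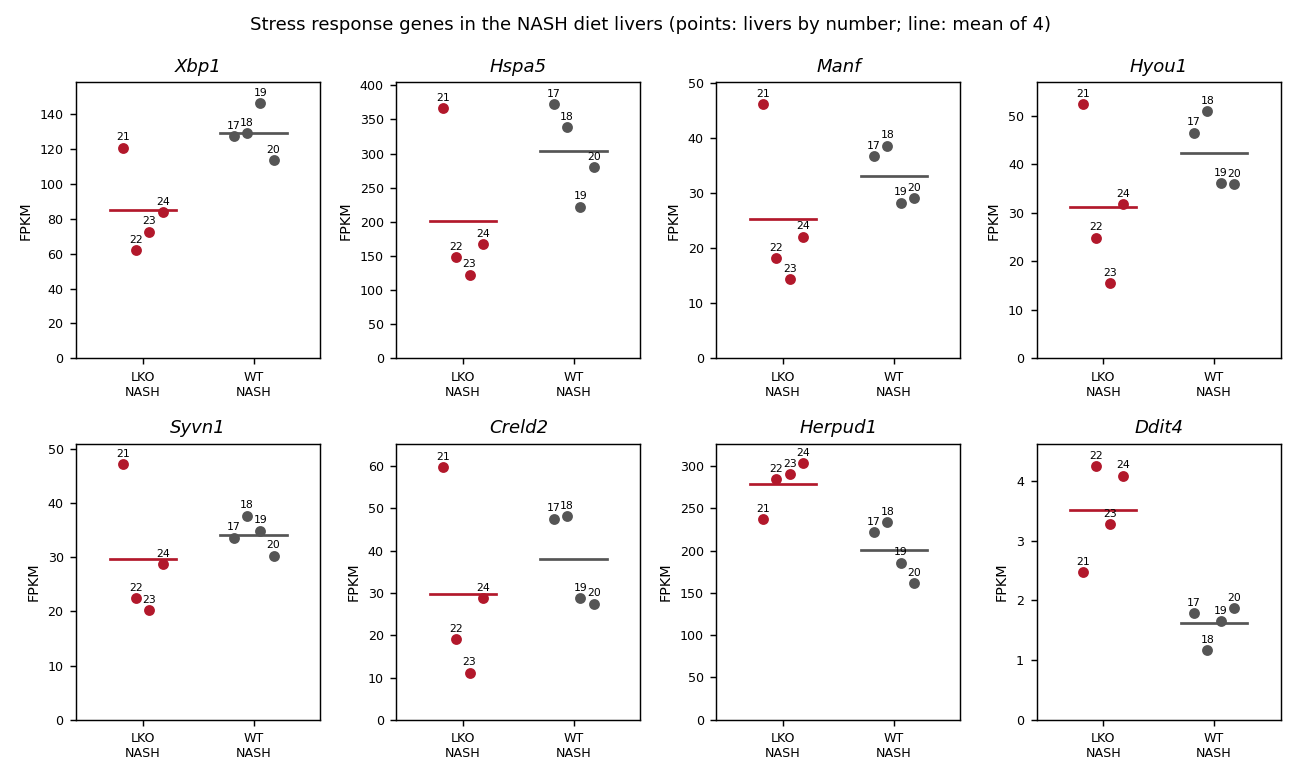
FPKM of 8 stress response genes in the NASH diet livers, LKO_NASH on the left and WT_NASH on the right of each panel, with each point labelled by its liver number and a line at the mean of 4. Livers 22 to 24 lie below the WT_NASH livers for Xbp1, Hspa5, Manf, Hyou1 and Syvn1, liver 21 does not, and all LKO_NASH livers lie above the WT_NASH livers for Herpud1 and Ddit4.

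Liver 21 was singled out here for its high ER values, so leaving it out lowers the genes it led by construction. The shares over all genes are therefore no baseline for that choice, and the counts that follow are descriptive. Without liver 21, edgeR called 5 ER genes lower in LKO_NASH, and 1.96% of all genes were lower and 1.28% higher under the same rule. The 5 were Xbp1 at -1.001 (adjusted p = 0.0239), Hspa5 at -1.24 (adjusted p = 0.0328), Manf at -1.05 (adjusted p = 0.0314), Syvn1 at -0.69 (adjusted p = 0.0405) and Atf6 at -0.47 (adjusted p = 0.0441). Hyou1 (-1.01, adjusted p = 0.0542) and Dnajb11 (-0.79, adjusted p = 0.054) narrowly did not pass. By FPKM, 8 of 23 ER genes had livers 22 to 24 all below the WT_NASH livers, where 4.39% of all genes did so, and 1 had them above (Herpud1), where 25.4% of all genes did. With all 16 libraries in 1 fit that kept liver 21, Xbp1 was called lower at -0.76 (adjusted p = 0.0472), as were 66 of all 13830 genes. Leaving out liver 23, which was the lowest of its group in most ER genes, brought the ER median to -0.22 with 20 of 23 negative. Xbp1 was then at -0.70, Hspa5 at -0.57, Hyou1 at -0.38 and Dnajb11 at -0.42. In that fit 2 ER genes, Xbp1 and Atf6, were lower at an unadjusted p below 0.05, beside 472 of all 12960 genes. The ER median was -0.29 without WT_NASH liver 18 and -0.38 without WT_NASH liver 20. No label sets liver 21 or liver 23 apart, and each of the 8 livers was left out in turn, with 0 members called in the other 7 fits.

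Other gene lists of the ER were mostly negative too. Of 44 genes of ER translocation and folding, 41 were negative with a median of -0.28. At an unadjusted p below 0.05, 14 were lower and 0 higher, beside 752 and 985 of all 12786 genes. Of 22 genes of ER-associated degradation, 18 were negative (median -0.15), as were 22 of 27 stress regulators (median -0.12). Cytosolic heat shock genes were balanced, with 9 of 18 negative and a median of 0.01, and so were mitochondrial stress genes, with 7 of 12 negative and a median of -0.02. Of these lists, 0 genes were called. Hepatocyte markers also lay lower, with 13 of 15 negative (median -0.30) and a summed level of 71005 to 83405 FPKM in LKO_NASH livers against 82651 to 90439 in WT_NASH livers. Macrophage markers lay higher, with 19 of 20 positive (median 0.69) and a summed level of 230.2 to 488 FPKM in LKO_NASH livers against 161 to 299.9 in WT_NASH livers. All markers of both lists were detected in both groups, and their part in the ER result was not tested. Liver 21 had the highest sum of its group for both. The median was 0.07 for 12 stellate cell markers, 0.45 for 7 plasma cell markers tested, 0.21 for 15 immediate early genes, -0.34 for 10 glucocorticoid targets and 0.03 for 15 clock genes. Glucocorticoid targets summed to 5423 FPKM in liver 21, 1901 to 2133 in livers 22 to 24 and 2680 to 6467 in WT_NASH livers. Clock genes summed to 164 FPKM in liver 21, 254 to 285 in livers 22 to 24 and 180 to 221.8 in WT_NASH livers. The part of these lists in the ER values of liver 21 was not tested. Of 13 pancreatic acinar markers, 2 passed the filter (median -0.76), the summed level was 3.59 to 5.25 FPKM in LKO_NASH livers and 3.31 to 8.51 in WT_NASH livers, and the defining Cpa1, Cpb1, Prss2 and Pnlip were at 0 in both groups.

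ATF4-type genes were of both signs in LKO_NASH livers, with 5 of 11 positive, a median of -0.24 and 0 called. With no adjustment, 2 in each direction had p below 0.05, beside 752 lower and 985 higher of all 12786 genes. Ddit4, an inhibitor of mTORC1 also called REDD1, had 2.47, 4.25, 3.28 and 4.09 FPKM in LKO_NASH livers, against 1.79, 1.17, 1.65 and 1.87 in WT_NASH livers. All 4 LKO_NASH livers were above all WT_NASH livers, and the log2 fold change was 0.96 (adjusted p = 0.305, SE 0.19). DESeq2 called Ddit4 at 0.95 (adjusted p = 0.00593), as 1 of 88 genes called higher over all genes. Without liver 21 edgeR called it at 1.08 (adjusted p = 0.0313), and it called 1.28% of all genes higher. Ddit3, which encodes the death-linked factor CHOP, had 4.00, 4.46, 3.38 and 5.44 FPKM in LKO_NASH livers, against 3.27, 3.19, 3.00 and 2.99 in WT_NASH livers, also without overlap, and a log2 fold change of 0.34 (adjusted p = 0.384, SE 0.16). Atf3, a stress-induced factor, was low, with 0.74, 0.99, 0.79 and 2.15 FPKM in LKO_NASH livers, against 0.35, 0.43, 0.55 and 0.79 in WT_NASH livers. Its log2 fold change of 0.98 (adjusted p = 0.356, SE 0.36) was 0.55 without liver 24. Of 11 ATF4-type genes 2 were thus higher without overlap (Ddit4 and Ddit3) and 9 overlapped. Over all genes 6.93% were higher without overlap and 0.673% lower.

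Atf4 itself had 69.5, 39.7, 42.3 and 44.5 FPKM in LKO_NASH livers, against 61.0, 49.4, 49.8 and 65.5 in WT_NASH livers. Livers 22 to 24 were below all WT_NASH livers and liver 21 above them, for a log2 fold change of -0.34 (adjusted p = 0.435, SE 0.19), and without liver 21 Atf4 was called lower at -0.57 (adjusted p = 0.0435). Enzymes of amino acid supply were the highest of their group in liver 21 too. Asns, the asparagine synthetase, had 1.81, 0.08, 0.24 and 0.23 FPKM in LKO_NASH livers, against 0.86, 0.44, 0.72 and 2.30 in WT_NASH livers. Psat1, an enzyme of serine synthesis, had 2.51, 0.28, 0.57 and 0.57 FPKM in LKO_NASH livers, against 0.95, 0.30, 0.84 and 3.42 in WT_NASH livers. Phgdh, the first enzyme of that pathway, had 0.34, 0.05, 0.15 and 0.07 FPKM in LKO_NASH livers, against 0.17, 0.25, 0.34 and 1.33 in WT_NASH livers, with a log2 fold change of -1.94 (adjusted p = 0.357, SE 0.77), which was -2.78 without liver 21 and -0.97 without liver 20, at levels near the lower limit of the tables and with the pseudogene Phgdh-ps1 as a possible second source of reads. Livers 21 and 20 were the highest of their groups for all 3 enzymes, and the log2 fold changes of Asns (-0.98) and Psat1 (-0.59) had wide 95% intervals of -2.91 to 0.96 and -2.38 to 1.20. Asns was -2.74 without liver 21 and -0.37 without liver 20, and Psat1 was -1.70 without liver 21. Chac1, which degrades glutathione, had 11.4, 7.50, 4.58 and 2.90 FPKM in LKO_NASH livers, against 7.77, 14.0, 10.0 and 8.69 in WT_NASH livers (-0.75 on the log2 scale, and -1.18 without liver 21). Trib3, a pseudokinase that restrains ATF4, had 2.17, 3.17, 3.38 and 3.01 FPKM in LKO_NASH livers, against 2.57, 2.20, 2.01 and 1.71 in WT_NASH livers (0.31). Ppp1r15a, the GADD34 subunit that directs dephosphorylation of eIF2α, had 5.61, 5.34, 5.25 and 5.89 FPKM in LKO_NASH livers, against 5.28, 5.93, 5.30 and 7.11 in WT_NASH livers, with a log2 fold change of -0.24 (adjusted p = 0.363, SE 0.10). Sesn2, a sestrin that lowers mTORC1 activity, had a log2 fold change of 0.34 with overlapping groups. Of 37 other ATF4 targets tested, 24 were negative and 0 were called. At an unadjusted p below 0.05, 3 were lower and 3 higher, beside 752 and 985 of all 12786 genes.

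The overexpression experiment asks what added ChREBPα does under the HFLMCD diet. In Ad_Chrebpa_HFLMCD livers Calr fell and Herpud1 rose, and these were the members called among the 23 ER genes and 11 ATF4-type genes. Over all 13658 genes 4.95% were called higher and 3.18% lower, so 1 called in each direction of 34 is near that share. The ER chaperones lay slightly below those of the Ad_GFP_HFLMCD livers. Of the 23 ER genes 18 were negative, with a median of -0.20 beside -0.01 over all genes, of which 52.6% were negative. The FPKM of 12 ER genes did not overlap between the groups and were lower in Ad_Chrebpa_HFLMCD, as in 14.5% of all genes, and 0 were higher without overlap, as in 4.84%. The FPKM scale tilts toward lower values here: of all genes called, 60.9% were higher on counts and 30.1% on log2(FPKM + 1). At an unadjusted p below 0.05, 14 ER genes were lower and 2 higher, beside 1778 lower and 1847 higher of all 13658 genes.

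Calr had 355, 360.1, 359 and 386 FPKM in Ad_Chrebpa_HFLMCD livers, against 483, 493, 411 and 471 in Ad_GFP_HFLMCD livers. Its 4 values in Ad_Chrebpa_HFLMCD all lay under the lowest Ad_GFP_HFLMCD value, and the log2 fold change was -0.28 (adjusted p = 0.0328, SE 0.065). Herpud1 had 175, 133, 203 and 246 FPKM in Ad_Chrebpa_HFLMCD livers, against 92.3, 107, 144 and 115 in Ad_GFP_HFLMCD livers. Liver 14 lay below liver 11 and otherwise the groups were apart, with a log2 fold change of 0.79 (adjusted p = 0.0322, SE 0.19). The ratio of Herpud1 to Calr FPKM was 0.49, 0.37, 0.57 and 0.64 in Ad_Chrebpa_HFLMCD livers, against 0.19, 0.22, 0.35 and 0.24 in Ad_GFP_HFLMCD livers, without overlap. It joins the ER genes called in opposite directions in this comparison, so its lack of overlap is no separate result. Both genes lie on chromosome 8, and of the 20 genes nearest to each, 2 near Calr and 1 near Herpud1 were called, where 7.21% of the chromosome's genes were.

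Neither call held without each liver. Without liver 9, 10, 12, 13, 15 or 16 the adjusted p of Calr was 0.0601 to 0.0884 and that of Herpud1 0.0633 to 0.0829, and both were called without liver 11 or liver 14. The fit of all 16 libraries also ended the call of Calr (-0.26, adjusted p = 0.336) and log2(FPKM + 1) with no filter that of Herpud1 (0.70, adjusted p = 0.0699). Over the 8 fits without a liver their log2 fold changes were -0.32 to -0.25 and 0.64 to 0.94. Without liver 13 Ppp1r15a was called higher at 0.42 (adjusted p = 0.0455), and without liver 10 Creld2 (-0.42, 0.0465) and Manf (-0.42, 0.0499) were called lower. Without liver 14 edgeR called 6 ER genes lower, as it did 5.7% of all genes. They were Hyou1 at -0.48 (adjusted p = 0.0172), Hspa5 at -0.43 (0.0186), Pdia4 at -0.30 (0.0211), Creld2 at -0.43 (0.0311), Dnajb9 at -0.33 (0.0388) and Calr at -0.27 (0.0478). DESeq2 on all 8 livers called 7 ER genes lower, where it called 5.63% of all genes lower: Calr, Hspa5, Hyou1, Pdia4, Manf, Creld2 and Hsp90b1, with adjusted p of 0.00148 to 0.0337.

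**Figure D3:**
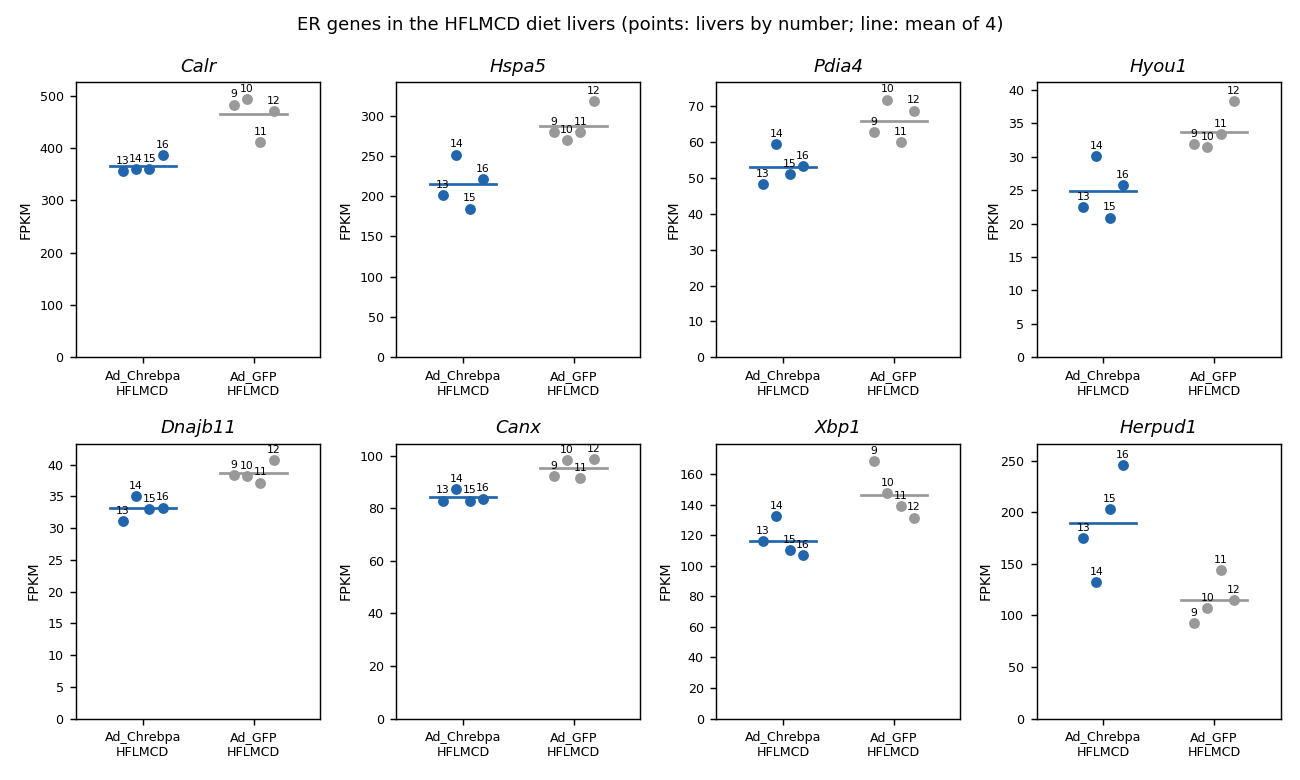
FPKM of 8 ER genes in the HFLMCD diet livers, Ad_Chrebpa_HFLMCD on the left and Ad_GFP_HFLMCD on the right of each panel, with each point labelled by its liver number and a line at the mean of 4. The chaperones Calr, Hspa5, Pdia4, Hyou1, Dnajb11 and Canx lie lower without overlap in Ad_Chrebpa_HFLMCD, Xbp1 overlaps by a little, and Herpud1 lies higher apart from liver 14.

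The other chaperones had log2 fold changes of -0.11 to -0.38, apart from Dnajc3, and were not called. Hspa5 had 202, 252, 185 and 221 FPKM in Ad_Chrebpa_HFLMCD livers, against 279.7, 270.0, 279.9 and 318 in Ad_GFP_HFLMCD livers. No Ad_Chrebpa_HFLMCD liver reached the Ad_GFP_HFLMCD range, and the log2 fold change was -0.35 (adjusted p = 0.0584, SE 0.10). Hyou1 had 22.5, 30.1, 20.9 and 25.8 FPKM in Ad_Chrebpa_HFLMCD livers, against 31.9, 31.5, 33.4 and 38.3 in Ad_GFP_HFLMCD livers, or -0.38 (adjusted p = 0.0685, SE 0.11) on the log2 scale. Hsp90b1 had 225, 229, 218 and 237 FPKM in Ad_Chrebpa_HFLMCD livers, against 259, 277, 253 and 283 in Ad_GFP_HFLMCD livers (-0.17 on the log2 scale). Canx had 82.9, 87.2, 82.9 and 83.7 FPKM in Ad_Chrebpa_HFLMCD livers, against 92.1, 98.5, 91.4 and 98.8 in Ad_GFP_HFLMCD livers (-0.11). For all 4 of these chaperones every Ad_Chrebpa_HFLMCD liver was under the lowest Ad_GFP_HFLMCD liver. Pdia3 had 160.5, 162, 156 and 164 FPKM in Ad_Chrebpa_HFLMCD livers, against 188, 200.2, 169 and 199.7 in Ad_GFP_HFLMCD livers (-0.16). Pdia4 had 48.4, 59.6, 51.1 and 53.3 FPKM in Ad_Chrebpa_HFLMCD livers, against 62.9, 71.9, 60.1 and 68.8 in Ad_GFP_HFLMCD livers (-0.24, adjusted p = 0.0613, SE 0.069). Both isomerases were likewise lower in all 4 Ad_Chrebpa_HFLMCD livers than in any Ad_GFP_HFLMCD liver. Dnajb11 had 31.1, 35.0, 32.9 and 33.2 FPKM in Ad_Chrebpa_HFLMCD livers, against 38.4, 38.2, 37.2 and 40.7 in Ad_GFP_HFLMCD livers (-0.14). Creld2 had 12.2, 16.0, 13.3 and 13.9 FPKM in Ad_Chrebpa_HFLMCD livers, against 18.0, 16.6, 17.9 and 21.6 in Ad_GFP_HFLMCD livers (-0.35, adjusted p = 0.0709, SE 0.11). Manf, Sdf2l1 and Pdia6 also did not overlap, with log2 fold changes of -0.35, -0.29 and -0.20. Dnajb9, at -0.25, overlapped by liver 14. Dnajc3 had 47.4, 43.1, 43.2 and 45.5 FPKM in Ad_Chrebpa_HFLMCD livers, against 46.0, 45.6, 46.3 and 46.6 in Ad_GFP_HFLMCD livers, with overlapping groups (0.029, and -0.04 on log2(FPKM + 1)).

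Among sensors and factors, Xbp1 had 116, 132, 110.3 and 107 FPKM in Ad_Chrebpa_HFLMCD livers, against 168, 148, 139 and 132 in Ad_GFP_HFLMCD livers. Liver 14 alone reached the lowest Ad_GFP_HFLMCD value, and the log2 fold change was -0.26 (adjusted p = 0.114, SE 0.094). Of the 20 genes nearest to Xbp1 on chromosome 11, 5 were called, where 12.3% of that chromosome's genes were. Atf6 had 14.0, 14.6, 15.4 and 16.0 FPKM in Ad_Chrebpa_HFLMCD livers, against 13.7, 15.6, 14.2 and 13.3 in Ad_GFP_HFLMCD livers, one of the few positive ER genes at 0.15 (adjusted p = 0.124, SE 0.057). Ern1 had 7.60, 10.6, 9.27 and 8.31 FPKM in Ad_Chrebpa_HFLMCD livers, against 11.1, 12.3, 8.78 and 11.4 in Ad_GFP_HFLMCD livers (-0.21 on the log2 scale). Eif2ak3 had 4.82, 6.21, 6.73 and 6.16 FPKM in Ad_Chrebpa_HFLMCD livers, against 7.27, 8.03, 6.65 and 7.40 in Ad_GFP_HFLMCD livers (-0.22, adjusted p = 0.145, SE 0.09). The groups overlapped for all of these. In ER-associated degradation, Syvn1 had 21.2, 25.4, 22.0 and 24.5 FPKM in Ad_Chrebpa_HFLMCD livers, against 26.1, 24.1, 24.9 and 28.4 in Ad_GFP_HFLMCD livers (-0.093 on the log2 scale). Sel1l had 26.3, 25.4, 26.1 and 28.1 FPKM in Ad_Chrebpa_HFLMCD livers, against 25.7, 26.9, 24.5 and 26.0 in Ad_GFP_HFLMCD livers (0.11). Edem1 had 23.5, 21.8, 20.9 and 24.4 FPKM in Ad_Chrebpa_HFLMCD livers, against 24.5, 23.9, 22.3 and 23.8 in Ad_GFP_HFLMCD livers (0.012, and -0.06 on log2(FPKM + 1)). Derl3 had 2.91, 2.11, 1.66 and 3.47 FPKM in Ad_Chrebpa_HFLMCD livers, against 2.70, 3.85, 2.88 and 2.61 in Ad_GFP_HFLMCD livers (-0.17). The groups overlapped for these 4 genes as well.

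ATF4-type genes were not called in this comparison, with 4 of 11 positive and a median of -0.34. At an unadjusted p below 0.05, 1 was higher (Ppp1r15a) and 1 lower (Atf4), beside 1847 and 1778 of all 13658 genes. DESeq2 and limma-voom called 0 ATF4-type genes. The negative median rested on liver 11 of Ad_GFP_HFLMCD and was 0.06 without it. That liver was singled out here for its high ATF4-type values, so leaving it out lowers the Ad_GFP_HFLMCD values by construction. The share over all genes is no baseline for that choice, and the counts that follow are descriptive. In liver 11, 9 of 11 ATF4-type genes were the highest of the group, where 20.9% of all genes were, and 24 of 38 other ATF4 targets were. Only 1 of 23 ER genes was highest there and 11 were lowest.

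Atf4 had 59.2, 65.5, 53.2 and 61.0 FPKM in Ad_Chrebpa_HFLMCD livers, against 78.8, 66.2, 129 and 77.0 in Ad_GFP_HFLMCD livers. The groups did not overlap with or without liver 11, which was the highest, and the log2 fold change of -0.50 (adjusted p = 0.127, SE 0.19) became -0.24 (adjusted p = 0.195) without it. Chac1 had 0.64, 0.54, 1.43 and 1.55 FPKM in Ad_Chrebpa_HFLMCD livers, against 1.13, 1.08, 11.5 and 0.95 in Ad_GFP_HFLMCD livers. Liver 11 held 11.0 times the mean of the other 3 Ad_GFP_HFLMCD livers, and the log2 fold change of -1.77 (adjusted p = 0.219, SE 0.86) became 0.06 without it. Ddit3 had 9.05, 9.28, 7.81 and 11.1 FPKM in Ad_Chrebpa_HFLMCD livers, against 9.03, 9.53, 23.5 and 11.3 in Ad_GFP_HFLMCD livers, so that liver 11 was 2.36 times the mean of livers 9, 10 and 12 and the remaining livers overlapped. Its log2 fold change of -0.46 (adjusted p = 0.351, SE 0.29) was -0.02 without liver 11. Trib3 had 9.23, 5.50, 6.87 and 11.9 FPKM in Ad_Chrebpa_HFLMCD livers, against 5.46, 4.44, 12.8 and 4.50 in Ad_GFP_HFLMCD livers (0.37 on the log2 scale, and 0.89 with adjusted p = 0.0823 without liver 11). Ddit4 had 3.40, 2.33, 4.26 and 5.16 FPKM in Ad_Chrebpa_HFLMCD livers, against 2.54, 2.71, 7.01 and 2.81 in Ad_GFP_HFLMCD livers (0.07, and 0.57 with adjusted p = 0.201 without liver 11). Atf3 had 13.8, 19.2, 15.7 and 15.0 FPKM in Ad_Chrebpa_HFLMCD livers, against 16.5, 17.5, 33.4 and 17.0 in Ad_GFP_HFLMCD livers (-0.34, and -0.01 without liver 11). In each of these 4, liver 11 was the highest of all 8 livers.

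Promoter windows around the C/EBP-ATF element are shown for Atf3 and Chac1, which stood high in liver 11. They are 60 bases on GRCm38.p6 read along the gene, from chr1:191183410-191183469 (minus strand) and chr2:119351023-119351082 (plus strand), with the element in capitals.
Atf3: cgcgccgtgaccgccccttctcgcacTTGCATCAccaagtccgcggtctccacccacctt
Chac1: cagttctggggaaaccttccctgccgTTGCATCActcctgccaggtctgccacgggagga
Of the 11 ATF4-type genes, all with a window, these 2 held the element in the window searched.

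Fgf21, a hepatokine and ATF4 target, had 6.74 to 18.6 FPKM in Ad_Chrebpa_HFLMCD livers, against 243.8 in liver 11 and 14.4 to 19.4 in the other Ad_GFP_HFLMCD livers. Gdf15, a stress-induced cytokine, had 10.5 to 21.9 FPKM in Ad_Chrebpa_HFLMCD livers, against 42.2 in liver 11 and 13.4 to 20.5 in the other Ad_GFP_HFLMCD livers. Mthfd2, a mitochondrial folate enzyme, had 1.72 to 2.34 FPKM in Ad_Chrebpa_HFLMCD livers, against 7.09 in liver 11 and 2.33 to 2.81 in the other Ad_GFP_HFLMCD livers. These 3 genes were named after their values were seen. With liver 11 and liver 14 both left out, a choice made after seeing the data, edgeR called Herpud1 (1.07), Trib3 (1.04, adjusted p = 0.0237) and Ddit4 (0.75, adjusted p = 0.0346) higher and Calr, Ern1, Hspa5, Hyou1 and Pdia4 lower. These were 3 and 5 of 34 members, where 4.71% of all genes were called higher and 3.16% lower in that fit.

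**Figure D4:**
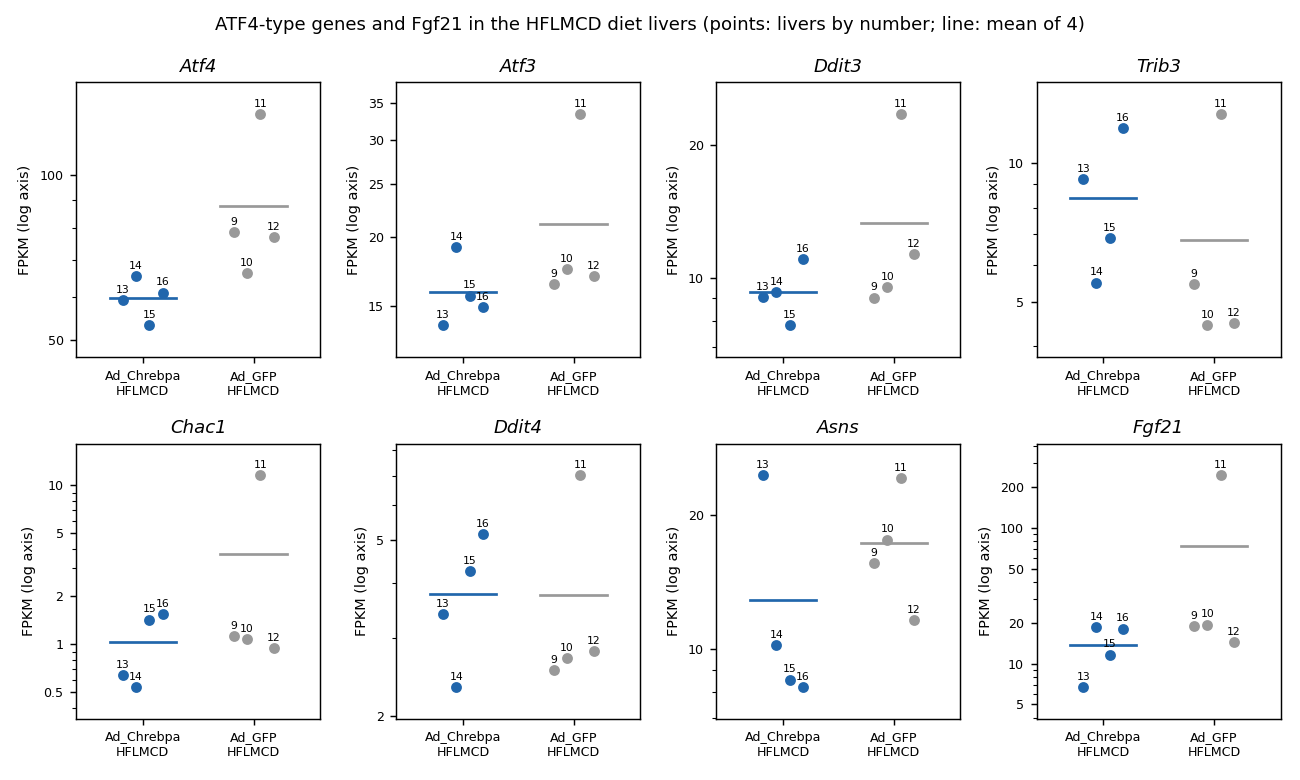
FPKM on log axes of 7 ATF4-type genes and Fgf21 in the HFLMCD diet livers, Ad_Chrebpa_HFLMCD on the left and Ad_GFP_HFLMCD on the right of each panel, with each point labelled by its liver number and a line at the mean of 4. Liver 11 lies above the other Ad_GFP_HFLMCD livers in every panel, by most for Chac1 and Fgf21.

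The remaining ATF4-type genes showed smaller differences. Ppp1r15a had 5.13, 6.41, 7.83 and 6.72 FPKM in Ad_Chrebpa_HFLMCD livers, against 5.16, 5.93, 4.97 and 5.65 in Ad_GFP_HFLMCD livers. Liver 11 was the lowest there, and the log2 fold change was 0.34 (adjusted p = 0.0934, SE 0.11). Psat1 had 6.77, 5.00, 4.38 and 4.71 FPKM in Ad_Chrebpa_HFLMCD livers, against 6.56, 7.13, 9.79 and 5.48 in Ad_GFP_HFLMCD livers, with a log2 fold change of -0.40 (adjusted p = 0.226, SE 0.20). Asns had 24.5, 10.2, 8.54 and 8.23 FPKM in Ad_Chrebpa_HFLMCD livers, against 15.6, 17.6, 24.2 and 11.6 in Ad_GFP_HFLMCD livers, with liver 13 apart from its group, and -0.34 on the log2 scale. Phgdh (-0.015) and Sesn2 (0.034) had overlapping groups, and the sign of both changed between fits. Among 38 other ATF4 targets 1 was called higher and 2 lower. They were the glycine transporter Slc6a9 at 0.30, the neutral amino acid transporter Slc1a4 at -1.10 (adjusted p = 0.00319) and the mitochondrial enzyme Pck2 at -0.49 (adjusted p = 0.00353).

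Cytosolic heat shock genes lay lower beside the ER chaperones. Of 18 such genes 17 were negative (median -0.28) and 4 were called lower, with the Hsp70 relative Hspa4l at -0.45 (adjusted p = 0.0129), the Hsp90 partner Chordc1 at -0.44 and Hsp90aa1 at -0.51. Their summed FPKM was 1405 to 1912 in Ad_Chrebpa_HFLMCD livers, against 1967 to 2379 in Ad_GFP_HFLMCD livers. Of 44 genes of ER translocation and folding 2 were called lower (Ostc and Fkbp11) and 0 higher, with a median of -0.08. Of 22 degradation genes 1 was called higher (March6, an E3 ligase of the ER, at 0.44) and 1 lower (the conjugating enzyme Ube2g2 at -0.23). Of 28 stress regulators 2 were called higher, among them the CREB coactivator Crtc2 at 0.42, and 2 lower, Creb3l2 at -0.42 and Eif2s1, the eIF2α subunit, at -0.25. Mitochondrial stress genes had 0 called and a median of 0.01.

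Some clock genes and glucocorticoid targets rose, and few cell type markers were called. Of 16 clock genes 6 were called higher, with Nr1d1 at 0.85, Cry2 at 0.51 and Bhlhe41 at 0.63, and of 10 glucocorticoid targets 3 were, namely Pck1 at 1.47, Fkbp5 at 0.67 and Per1 at 0.79. Of 15 hepatocyte markers 2 were called higher (Fgb at 0.44 and Apoa1 at 0.33), with a summed level of 58159 to 65288 FPKM in Ad_Chrebpa_HFLMCD livers and 52510 to 64102 in Ad_GFP_HFLMCD livers. Of the plasma cell markers, which mark cells with a large ER, Jchain (2.09) and Mzb1 (1.29) were called higher. Jchain had 7.62 to 18.3 FPKM in Ad_Chrebpa_HFLMCD livers, against 2.64 to 3.68 in Ad_GFP_HFLMCD livers. The whole list summed to 72.5 to 86.5 FPKM in Ad_Chrebpa_HFLMCD livers and 77.7 to 88.4 in Ad_GFP_HFLMCD livers. Most of that sum was Sdc1, at a mean of 74.6 FPKM in Ad_GFP_HFLMCD livers, so the sum does not follow the other markers. Of 20 macrophage markers 1 was called higher (Itgax at 0.40), with sums of 1295 to 1906 FPKM in Ad_Chrebpa_HFLMCD livers and 1625 to 2548 in Ad_GFP_HFLMCD livers, and of 15 immediate early genes 2 were called lower (Egr1 and Jund). Stellate cell markers had 0 of 12 called, with a median of -0.19, and pancreatic acinar markers had 2 tested and 0 called. The part of these lists in the ER result was not tested.

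Herpud1 was thus positive in both experiments and most ER chaperones negative in both, while the labels give a deletion in one and added ChREBPα in the other. The difference between the experiments was not tested.

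The groups given GFP differ in diet, time on it, vector and genotype, which cannot be told apart, and each shares its libraries with one of the comparisons above. In WT_NASH livers 17 of 23 ER genes were called higher and 1 lower than in Ad_GFP_HFLMCD livers, while of 11 ATF4-type genes 2 were higher and 5 lower. Over all 13488 genes 28.2% were called higher and 30.9% lower. The count of ER genes depended on the scale: on log2(FPKM + 1), where the median of all genes lay 0.48 lower than on counts, 7 ER genes were called higher and 5 lower, and of the ATF4-type genes 1 and 8, and 5.88% of all genes were higher and 74.6% lower. On that scale the sign turned negative for Xbp1, Calr, Canx, Pdia3 and Pdia4 among the called ER genes, while the ER median remained 0.55 above the median of all genes.

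ER genes called higher in WT_NASH on both scales were Hyou1 and Sel1l and, without overlap in FPKM, Dnajb11, Dnajc3, Creld2, Herpud1 and Syvn1. Their levels in the 8 livers are those given above: Creld2, for example, had 47.6, 48.2, 28.8 and 27.5 FPKM in WT_NASH livers, against 18.0, 16.6, 17.9 and 21.6 in Ad_GFP_HFLMCD livers, a log2 fold change of 1.67 (adjusted p = 0.000142, SE 0.22). Herpud1 had 1.44 (adjusted p = 9.17e-05, SE 0.18), Syvn1 1.03 (adjusted p = 3.28e-05, SE 0.11), Dnajc3 0.97 (adjusted p = 7.75e-05, SE 0.12) and Dnajb11 0.91 (adjusted p = 0.000101, SE 0.11). Hyou1 was at 0.96 and Sel1l at 0.89. Hsp90b1 (0.78), Hspa5 (0.71), Atf6 (0.71), Edem1 (0.70) and Derl3 (1.58) were called on counts and were positive, but not called, on log2(FPKM + 1). Xbp1 (0.44), Pdia3 (0.50), Pdia4 (0.39), Calr (0.36) and Canx (0.32) were called higher on counts with the sign turned on the other scale, where Canx was called lower. Pdia6 (0.33), Sdf2l1 (0.36), Manf (0.30), Dnajb9 (0.29) and Ern1 (0.07) were not called on counts, and all 5 were negative on log2(FPKM + 1). There Ern1 (-0.51, adjusted p = 0.0106), Manf (-0.33, adjusted p = 0.0262) and Pdia6 (-0.30, adjusted p = 0.0313) were called lower. Eif2ak3 was the ER gene called lower, at -0.39 (adjusted p = 0.0245, SE 0.13), and its call ended without liver 9, 10, 12, 18 or 19 (adjusted p = 0.0538 to 0.0646) and in the fit of all 16 libraries (-0.33, adjusted p = 0.0834). The calls of Calr and Pdia4 ended without most single livers (adjusted p up to 0.114 and 0.108).

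Among ATF4-type genes 5 fell in WT_NASH livers relative to Ad_GFP_HFLMCD livers. Atf3 was far lower in WT_NASH livers, at 0.35 to 0.79 FPKM against 16.5 to 33.4 in Ad_GFP_HFLMCD livers, a log2 fold change of -4.67 (adjusted p = 2.81e-06, SE 0.31). Asns was lower at -3.35 (adjusted p = 7.30e-05, SE 0.40), Psat1 at -1.76 (adjusted p = 0.0127, SE 0.51), Ddit3 at -1.49 (adjusted p = 0.00215, SE 0.31) and Trib3 at -1.06 (adjusted p = 0.0246, SE 0.35). All 5 were called lower without liver 11 too, where Ddit3 was at -1.06 and Trib3 at -0.55 (adjusted p = 0.0336). Their FPKM did not overlap between the groups, but 68.9% of all genes were lower without overlap and 4.51% higher, so the lack of overlap is near the share over all genes. The call of Trib3 ended without liver 19 (adjusted p = 0.0593) or 20 (0.0645). Chac1 was higher in WT_NASH livers at 2.09 (adjusted p = 0.035, SE 0.75), although liver 11 reached their range, and at 3.90 (adjusted p = 1.54e-05) without liver 11, with the call lost without liver 9, 10, 12, 18 or 19 (adjusted p = 0.0589 to 0.0812). Ppp1r15a was higher at 0.74 (adjusted p = 0.000196, SE 0.10), and was not called on log2(FPKM + 1) at 0.10 (adjusted p = 0.367). Ddit4 (-0.59, and -0.099 without liver 11), Phgdh (-0.77) and Sesn2 (0.22) were not called on counts, and Sesn2 was negative on log2(FPKM + 1). On that scale Ddit4 (-0.78, adjusted p = 0.0131) and Phgdh (-0.70, adjusted p = 0.0131) were called lower, where 74.6% of all genes were. Atf4 mRNA had a 95% interval of -0.43 to 0.43 on counts and lay lower without overlap in FPKM. It too was called lower on log2(FPKM + 1), at -0.59 (adjusted p = 0.0165).

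Other lists differed between these groups too. Of 22 degradation genes 17 were called higher and 1 lower, of 44 folding genes 17 and 7, of 27 stress regulators 9 and 7, of 38 other ATF4 targets 12 and 15, of 18 cytosolic heat shock genes 5 and 6, and of 12 mitochondrial stress genes 8 and 2. Named by the lowest adjusted p, these included March6 (1.11), Rnf5 (0.67), Ero1lb (1.16), Sec63 (0.57), Eif2ak1 (0.59), Tars (1.22), Dnaja3 (0.98), Clpp (0.61) and Clpx (0.59) as higher in WT_NASH, and Fkbp11 (-1.35), Bak1 (-0.76), Traf2 (-0.70), Pck2 (-2.21), Slc7a11 (-4.66), Bag3 (-0.56), Hspa1b (-2.26) and Hspa1a (-2.15) as lower. All 15 hepatocyte markers were called higher (led by Serpina3k, Apoc3 and Fgb), and 18 of 20 macrophage markers (led by Itgam, Cd68 and Itgax), 10 of 12 stellate cell markers (led by Lum, Col1a1 and Col1a2) and 10 of 15 immediate early genes (led by Klf6, Egr2 and Egr1) were called lower. The macrophage markers summed to 161 to 299.9 FPKM in WT_NASH livers against 1625 to 2548 in Ad_GFP_HFLMCD livers. Of 10 glucocorticoid targets 7 were higher (led by Pck1, Fkbp5 and Mt1) and 2 lower, of 15 clock genes 8 and 2 (led by Nfil3, Hlf and Cry2), of 9 plasma cell markers 2 and 4 (led by Prdm1, Sdc1 and Cd79b), and of 2 acinar markers 0. Their part in the levels of the stress response genes was not tested.

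**Figure D5:**
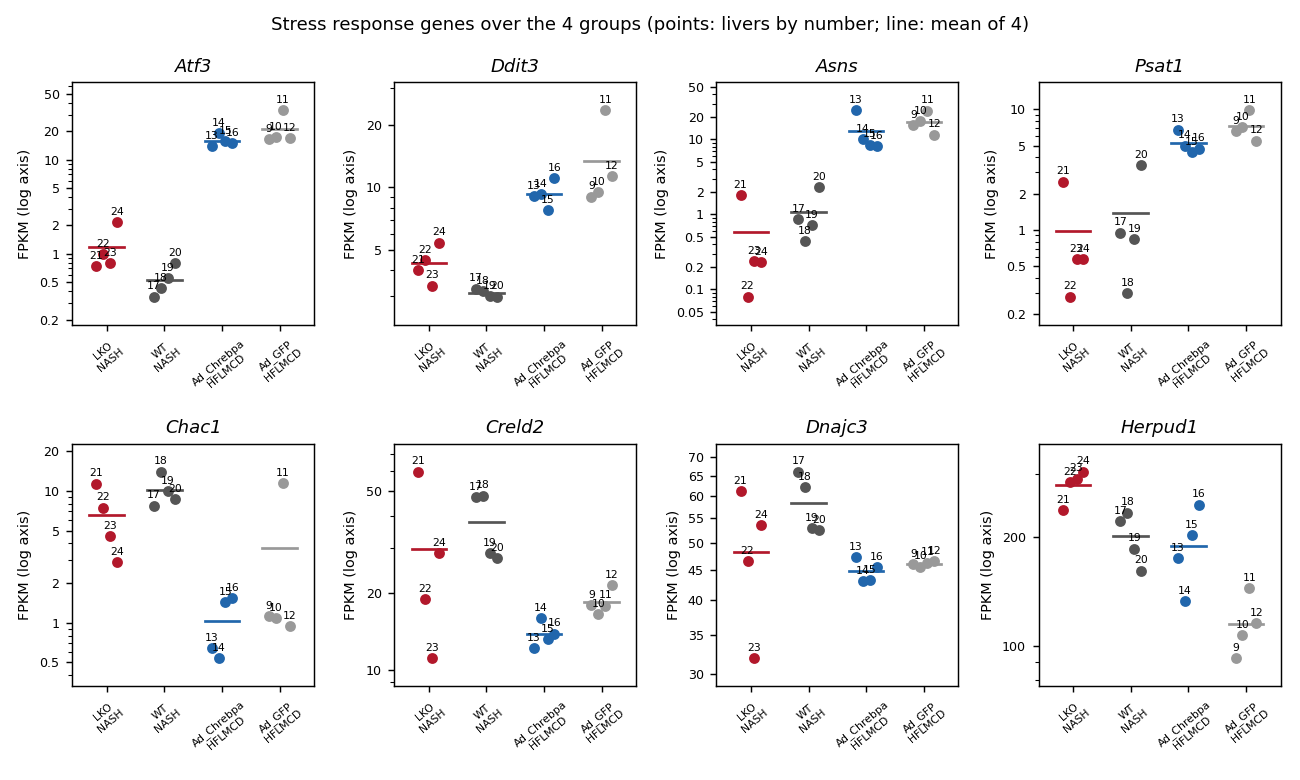
FPKM on log axes of 8 stress response genes in the 4 groups, with LKO_NASH, WT_NASH, Ad_Chrebpa_HFLMCD and Ad_GFP_HFLMCD from left to right, each point labelled by its liver number and a line at the mean of 4. Atf3, Ddit3, Asns and Psat1 lie lower in the LKO_NASH and WT_NASH livers than in the livers of the other groups. Creld2, Dnajc3 and Herpud1 lie higher in WT_NASH than in Ad_GFP_HFLMCD livers. Diet, time on it, vector and genotype differ together here and cannot be told apart. In FPKM 68.9% of all genes were lower without overlap in WT_NASH than in Ad_GFP_HFLMCD livers and 4.51% higher.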

How the data were processed

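RNA was sequenced from 16 mouse livers, with 4 in each of 4 groups taken from the labels. The labels do not say that the livers of a group are separate animals, so each p-value measures only the spread among these libraries. The authors deposited a table per library with expected counts, which need not be whole, and FPKM per gene, per the file headers; genes under FPKM 0.01 are not listed and were taken as 0. Reads were aligned with HISAT2, per the submitters' processing notes, while the counting program, genome build, annotation and strandedness are not stated in the labels or headers. Poly(A) selection or rRNA depletion was used, and which is not given.

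The expected counts, made whole by rounding, were tested per comparison in a fit of its 8 libraries with edgeR 4.0.16 (R 4.3.3; TMM, filterByExpr, quasi-likelihood test), with Benjamini-Hochberg adjustment over all genes tested. Alternatives were DESeq2 1.42.0, limma 3.58.1 (voom, and log2(FPKM + 1) with and without a filter at a mean FPKM of 1, and log2(FPKM + 0.1) with it), DESeq2 size factors, other filters, 1 fit of all 16 libraries and each liver left out. The fits were tested on simulated data. Tables were joined with pandas 2.3.3 on Python 3.11.15. Totals of 21254937 to 40327264 counts limit the precision of low genes most. Levels are compared between genes only in FPKM, and intervals cover the spread between samples.

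The members and lists were chosen with earlier results of these data known. Per-liver values are given for the sensors, Hspa5, Atf4, Ddit3, each member called in any comparison and, where a set had no call, its 4 members with the lowest unadjusted p; of other lists, up to 3 called members with the lowest adjusted p are named. Some genes that the naming rule or a marker list would give are not reported here.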

Additional observations from a re-analysis of the deposited data

Results flagged for a closer look

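In 13 of 136 sets of 4 livers (34 genes in 4 groups), 1 liver's FPKM lay far from the other 3, with a gap to the nearest, as a share of the whole range, above Dixon's 95% critical value. About 1 in 20 independent sets of normally distributed values would pass that value. The sets here share the same livers and hold related genes, so that rate is no baseline for the 13. Liver 11 of Ad_GFP_HFLMCD was the high liver for Atf3 (33.44), Ddit3 (23.46), Trib3 (12.77), Chac1 (11.54) and Ddit4 (7.01). Liver 21 of LKO_NASH was the high liver for Atf4 (69.55), Dnajb9 (57.7), Psat1 (2.51) and Asns (1.81). In Ad_Chrebpa_HFLMCD, liver 16 was high for Calr (385.82) and liver 13 for Asns (24.5). In WT_NASH, liver 17 was high for Sesn2 (4.47) and liver 20 for Phgdh (1.33).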

How the results depend on the processing

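No paired analysis was possible because the groups compared share no replicate numbers. Low genes such as Phgdh, Asns and Derl3 have wide intervals, and gene totals show neither Xbp1 splicing nor sensor activity. The single-member results under the alternatives were sorted by direction and side of the threshold. In the deletion comparison 559 kept both, 7 changed direction, and of the others 9 gained and 0 lost a call. No member was called there in the main fit, so none could lose a call. The overexpression comparison had 523, 25, 50 and 14 in that order, and the control comparison 467, 43, 18 and 50. The cause of the changes below was not tested.

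Members called higher in LKO_NASH numbered 0, against 1 by DESeq2 and 0 to 1 with a liver left out, and members called lower 0, against 1 in the fit of all 16 libraries and 0 to 6 with a liver left out. Over all genes 0 were higher, against 88 by DESeq2 and 0 to 166 with a liver left out. Lower were 0 of all genes, against 66 in the fit of all 16 libraries and 0 to 254 with a liver left out. Members called higher in Ad_Chrebpa_HFLMCD numbered 1, against 0 on log2(FPKM + 1) with no filter, 3 without livers 11 and 14, and 0 to 1 with a liver left out. Over all genes these were 676, against 360 with no filter, 645 without livers 11 and 14, and 263 to 937 with a liver left out. Members called lower there numbered 1, against 7 by DESeq2, 0 in the fit of all 16 libraries, 13 on log2(FPKM + 0.1) and on log2(FPKM + 1), 7 with no filter, 5 without livers 11 and 14, and 0 to 6 with a liver left out. Over all genes these were 434 of 13658, against 814 by DESeq2 and 100 of 13830 in the fit of all 16 libraries. On the FPKM scales they were 1040 and 1026 of 11513, and 825 of 17135 with no filter. Without livers 11 and 14 they were 432, and with a liver left out 137 to 785. In the control comparison 19 members were called higher, against 8 on log2(FPKM + 0.1) and log2(FPKM + 1) and 7 with no filter, and 6 lower, against 14, 13 and 13. Over all genes 3805 were higher, against 672, 676 and 766, and 4166 lower, against 8563, 8573 and 10374.

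Signs also turned. In the control comparison, log2(FPKM + 0.1) and log2(FPKM + 1) gave (log2(FPKM + 1) with or without a filter) -0.27 for Calr on both, -0.31 and -0.31 for Canx, -0.37 and -0.36 for Dnajb9, -0.57 and -0.51 for Ern1, -0.34 and -0.33 for Manf, -0.13 for Pdia3 on both, -0.26 and -0.26 for Pdia4, -0.31 and -0.30 for Pdia6, -0.36 and -0.33 for Sdf2l1, -0.39 and -0.32 for Sesn2 and -0.18 for Xbp1 on both. Atf4 was 0.00745 by DESeq2, 0.00793 with its size factors, 0.054 with all 16 libraries and 0.042 by limma-voom. In the deletion comparison Derl3 was -0.15 on log2(FPKM + 0.1) and -0.044 by limma-voom. In the overexpression comparison Chac1 was 0.28 without livers 11 and 14, Dnajc3 -0.044 and -0.043, Edem1 -0.0619 and -0.0595, and Sesn2 -0.00118 on log2(FPKM + 1).

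With a liver left out, control values spanned -0.12 to 0.25 for Atf4, -0.0219 to 0.19 for Ern1 and -0.025 to 0.46 for Sesn2. Deletion values spanned -0.25 to 0.67 for Derl3, -1.70 to 0.31 for Psat1 and -0.39 to 0.16 for Sdf2l1. Overexpression values spanned -2.09 to 0.062 for Chac1, -0.11 to 0.57 for Ddit4, -0.013 to 0.056 for Dnajc3, -0.024 to 0.0596 for Edem1, -0.18 to 0.12 for Phgdh and -0.087 to 0.29 for Sesn2.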
